A study of Mus with 4 samples.

Results

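The 4 Notch receptor genes Notch1, Notch2, Notch3 and Notch4 were examined together with Rbpj and Adam10 in LSECs (liver sinusoidal endothelial cells), which form the porous wall of the smallest vessels of the liver. The members were chosen by Ensembl identifier as the receptors that POFUT1 modifies, the transcription factor they act through and the protease that cuts them. They are 6 of the 54532 identifiers in the deposited table of read counts, and all 6 passed the filter on low counts that left 15510 genes for testing. The P1KO group held 2 libraries, and the samples of that group are labelled as from Pofut1 knockout mice. The library of column KO3 was placed in it by the column's name, as no sample title bears its number. The CTL group held 2 libraries from mice labelled only as controls. Mice of both groups had received carbon tetrachloride (CCl4), a toxin that injures the liver, so no library shows LSECs of an uninjured liver. The title of the series places the action of POFUT1 in the endothelium, whereas the sources used here give neither the promoter that drove the deletion nor the strain, the age or the dose of CCl4. The study asked through which genes POFUT1 shapes LSECs and hepatic stellate cells, which lay down matrix in the injured liver.

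Notch receptors are single-pass membrane proteins whose outer part is a long row of EGF-like repeats. POFUT1 attaches O-linked fucose to many of these repeats in the endoplasmic reticulum, and this sugar is needed for ligands of the Delta and Jagged families to act on the receptor. When a ligand on a neighbouring cell pulls on the receptor, the metalloprotease ADAM10 cuts it outside the membrane, gamma-secretase then cuts it within the membrane, and the freed intracellular domain binds the DNA-binding protein RBPJ and turns target genes on. NOTCH1 and NOTCH4 are the receptors best known from endothelium, NOTCH2 is used by many cell types including those that form bile ducts, and NOTCH3 is typical of vascular smooth muscle and pericytes. Loss of POFUT1 acts on the receptor proteins, so a difference in their transcripts is a separate measurement from the loss of the sugar.

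In RefSeq's annotation of GRCm38.p6, the assembly that corresponds to the mm10 build of the counts, Notch1 (ENSMUSG00000026923) lies on chromosome 2 from 26457902 to 26503822 and Notch2 (ENSMUSG00000027878) on chromosome 3 from 98013538 to 98150367. Notch3 (ENSMUSG00000038146) and Notch4 (ENSMUSG00000015468) share chromosome 17, from 32120820 to 32166896 and from 34564286 to 34588543. Rbpj (ENSMUSG00000039191) lies on chromosome 5 from 53555779 to 53657445, and Adam10 (ENSMUSG00000054693) on chromosome 9 from 70678944 to 70780229. All are protein-coding genes. Notch4 and Rbpj overlap no other gene of that annotation. Notch1 shares 1489 bases with the long noncoding gene 0610009E02Rik and contains the microRNA gene Mir6996. Notch2 contains the noncoding gene Gm40103. Notch3 shares 10673 bases with the noncoding gene Gm38585 and contains the noncoding gene Gm41568. Adam10 contains the pseudogene Cycs-ps1. For Rbpj, 3 pseudogenes are listed elsewhere in the genome, named Rbpj-ps1, Rbpj-ps2 and Rbpj-ps3. The sources used here do not state how strand and multiply mapped reads were treated, so the values of Rbpj and of the members with an overlapping gene may miss or include such reads.

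The 4 libraries held between 17464769 and 17918834 counted reads. Their numbers are those of the table's columns, CTL1, CTL2, KO1 and KO3. The labels name the tissue as liver and the cells as LSECs, while the extraction protocol names heart ventricles. Identifiers other than those of the members were not matched to gene symbols here, so Pofut1 itself, markers of LSECs, of heart muscle and of other liver cells, and the rest of the Notch pathway are not analysed here. The part of other cell types in the differences below was therefore not tested, and in a bulk sample fewer cells of a type and less RNA per cell cannot be told apart. Whether 2 libraries of a group stem from different mice is in no label. The p-values therefore rest on a spread between libraries that may be technical.

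The receptors did not move together. Transcripts of Notch1 and Notch4 were higher in P1KO LSECs, by 1.20-fold and 1.32-fold, whereas Notch2 was lower, at 0.663-fold of its level in CTL LSECs. Adam10 was higher by 1.19-fold. These 4 of the 6 members passed an adjusted p below 0.05 over all tested genes in edgeR's quasi-likelihood test, against 19.5% of the tested genes in either direction. Of these members 3 were higher, beside 9.68% of the tested genes called higher, and 1 was lower, beside 9.84% called lower. Notch3, at 1.37-fold, and Rbpj, at 0.870-fold, did not pass. No member reached a 2-fold difference, and Notch2 was the only one to reach 1.5-fold in size.

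**Figure D1:**
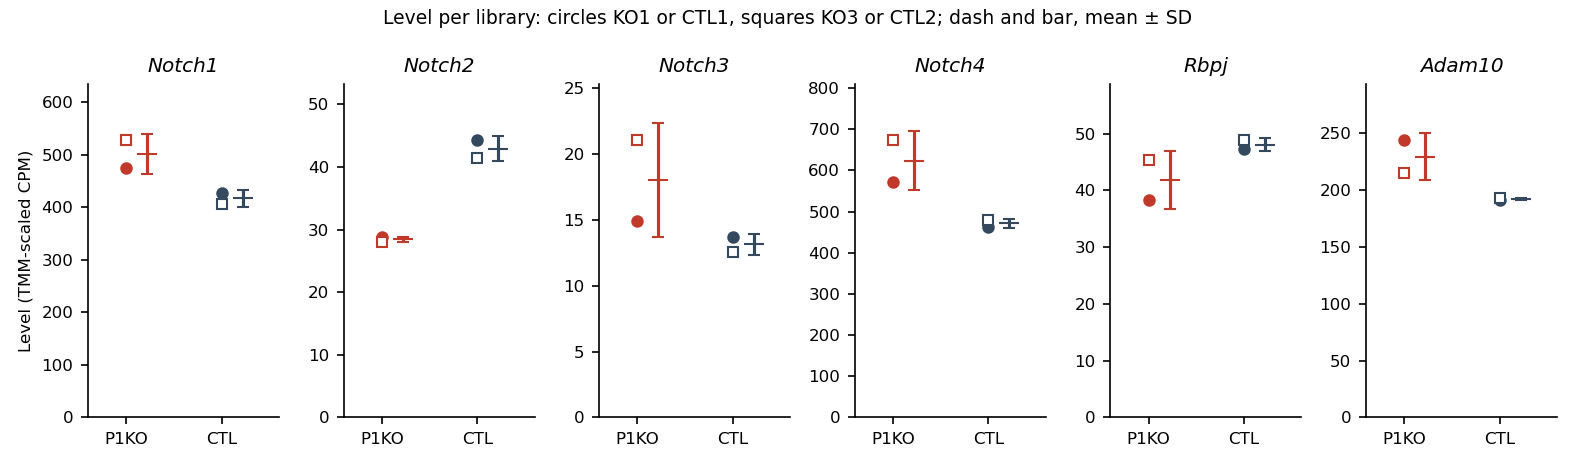
Levels of the 6 genes in each library as TMM-scaled CPM, with P1KO left of CTL in each panel; each axis starts at 0 and has its own scale, and dashes with bars are means ± SD of 2 libraries. Both P1KO libraries lie above both CTL libraries for Notch1, Notch3, Notch4 and Adam10 and below them for Notch2 and Rbpj, while the P1KO pair is wide for Notch3.

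Notch4 encodes a receptor found mainly in endothelial cells. It had 10085 reads in KO1 and 11998 in KO3, against 8135 in CTL1 and 8559 in CTL2. Scaled with TMM, which corrects for depth and composition, these counts were 573 and 674 CPM in the P1KO libraries, against 463 and 479 CPM in the CTL libraries. Both knockout libraries were above both controls. The mean was 624 ± 71.4 CPM in P1KO and 471 ± 11.2 CPM in CTL (SD, n = 2 each). Its log2 fold change was 0.40 ± 0.08 (SE), and edgeR's adjusted p was 0.0118. Its change was larger in size than that of 71.6% of the tested genes.

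Notch1 encodes the receptor that restrains sprouting and sets arterial fate in growing vessels. It had 8350 reads in KO1 and 9398 in KO3, against 7516 in CTL1 and 7242 in CTL2. The levels were 474 and 528 CPM in P1KO and 428 and 405.5 CPM in CTL, again without overlap. Means of 501 ± 37.9 CPM in P1KO and 417 ± 16.0 CPM in CTL (SD, n = 2 each) gave a log2 fold change of 0.27 ± 0.07 (SE) and an edgeR adjusted p of 0.0286. The difference was about 20.3%. Over all tested genes, 57.4% changed less and the others as much or more. Among genes of 128 to 512 CPM, where Notch1 lies, the median size of change was 0.172 on the log2 scale.

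Notch2 was the receptor that fell. It had 506 reads in KO1 and 500 in KO3, against 778 in CTL1 and 741 in CTL2. Its levels were nearly equal in the 2 knockout libraries, at 28.8 and 28.1 CPM, and both were well below the 44.3 and 41.5 CPM of the CTL libraries. The mean was 28.4 ± 0.468 CPM in P1KO and 42.9 ± 1.99 CPM in CTL (SD, n = 2 each). This was the largest change among the members and the one with the smallest adjusted p, with a log2 fold change of -0.59 ± 0.08 (SE) and an edgeR adjusted p of 0.00265. From the summed reads the ratio of P1KO to CTL was 0.663, with a 95% interval of 0.611 to 0.718 (exact binomial). Such intervals cover counting error only.

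Notch3 was the scarcest receptor by reads, with 263 reads in KO1 and 375 in KO3, against 241 in CTL1 and 225 in CTL2. The levels were 14.9 and 21.1 CPM in P1KO and 13.7 and 12.6 CPM in CTL. KO1 lay close to the controls, and the higher P1KO mean, 18.0 ± 4.33 CPM against 13.2 ± 0.798 CPM in CTL (SD, n = 2 each), came mostly from KO3. The log2 fold change of 0.45 ± 0.17 (SE) did not pass, with an edgeR adjusted p of 0.112. KO3 exceeded the pooled CTL libraries 1.60-fold (95% interval 1.39 to 1.84, exact binomial), whereas the ratio of KO1 to them was 1.14 (0.973 to 1.32), an interval that includes 1. Without KO1 the log2 value for Notch3 was 0.68, and without KO3 it was 0.18, each resting on the other knockout library alone.

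Adam10, the protease that makes the first ligand-dependent cut, had 4294 reads in KO1 and 3822 in KO3, against 3359 in CTL1 and 3447 in CTL2. Its levels were 244 and 215 CPM in P1KO and 191 and 193 CPM in CTL, and the groups did not overlap. The mean was 229 ± 20.7 CPM in P1KO and 192 ± 1.19 CPM in CTL (SD, n = 2 each). The log2 fold change was 0.26 ± 0.07 (SE). The edgeR adjusted p of 0.0436 was just inside the threshold of 0.05. Of the 2 knockout libraries KO1 was the higher here, the reverse of Notch1, Notch3 and Notch4.

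Rbpj, whose product carries the signal of every Notch receptor to DNA and represses the same genes while no signal arrives, had 673 reads in KO1 and 808 in KO3, against 829 in CTL1 and 873 in CTL2. The levels were 38.2 and 45.4 CPM in P1KO and 47.2 and 48.9 CPM in CTL. The ratio to the pooled CTL libraries was 0.796 for KO1 (95% interval 0.727 to 0.871, exact binomial) and 0.945 for KO3 (0.868 to 1.03). The first interval leaves out 1 and the second includes it, but both cover counting error only. The mean was 41.8 ± 5.06 CPM in P1KO and 48.0 ± 1.18 CPM in CTL (SD, n = 2 each). The log2 fold change was -0.20 ± 0.09 (SE), and the edgeR adjusted p was 0.178. In the fit without KO3 the log2 value for Rbpj was -0.33, and without KO1 it was -0.08, each resting on the other knockout library alone.

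**Figure D2:**
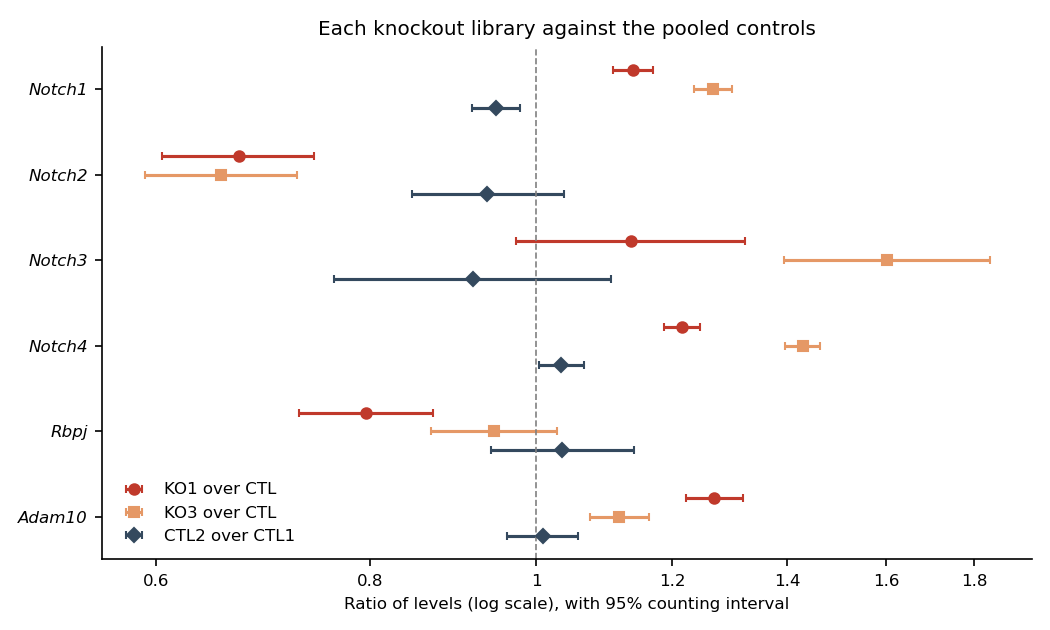
Ratio of the level in KO1 and in KO3 to the pooled CTL libraries, and of CTL2 to CTL1, for each gene on a log axis; bars are 95% exact binomial intervals, which cover counting error only. Both knockout points lie on the same side of 1 for all 6 genes, and the 2 knockout points are farthest apart for Notch3 and closest for Notch2.

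The knockout libraries differed from each other beyond counting error for 5 of the 6 genes. The share of all tested genes that did so was not computed, and counting intervals are narrow for genes of many reads. The ratio of KO3 to KO1 was 1.41 for Notch3 (95% interval 1.20 to 1.66, exact binomial), 1.19 for Rbpj (1.07 to 1.32), 1.18 for Notch4 (1.15 to 1.21) and 1.11 for Notch1 (1.08 to 1.15). For Adam10 it was below 1, at 0.880 (0.842 to 0.919). Notch2 was the exception, with a ratio of 0.977 (0.862 to 1.11). Between the controls, the ratio of CTL2 to CTL1 lay between 0.918 for Notch3 and 1.04 for Rbpj, and its interval left out 1 for Notch1 (0.917 to 0.978) and narrowly for Notch4 (1.003 to 1.066). The coefficient of variation between libraries was higher in P1KO than in CTL for every member but Notch2, for which it was 1.65% in P1KO and 4.65% in CTL. Over the 6010 tested genes of at least 32 CPM, which do not include Notch3, the median was 4.25% in P1KO and 2.28% in CTL. The share of tested genes with the higher coefficient in P1KO was not computed.

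Ratios between 2 genes within a library do not depend on its depth, and the transcript lengths cancel when such a ratio is compared between groups. The 15 pairs of members gave 10 ratios whose groups did not overlap. The share of such ratios among pairs of other tested genes was not computed. Each member had groups without overlap by itself, as had 62.6% of all tested genes. The ratios also share members and are not independent, so their count alone says little. The largest shifts were those of Notch2 against the other receptors. The ratio of Notch2 to Notch3 moved most, by -1.03 on the log2 scale, but its P1KO libraries lay far apart. It was 1.92 and 1.33 in P1KO and 3.23 and 3.29 in CTL. The ratio of Notch2 to Adam10 moved nearly as much as those to the receptors, by -0.846. For each Notch2 read there were 16.5 and 18.8 Notch1 reads in the P1KO libraries, against 9.66 and 9.77 in the CTL libraries, a 1.81-fold higher ratio in P1KO. The ratio of Notch2 to Notch4 was 0.0502 and 0.0417 in P1KO and 0.0956 and 0.0866 in CTL, a change of -0.99 on the log2 scale. Notch1 and Notch4 kept closer to each other, with 0.828 and 0.783 Notch1 reads per Notch4 read in P1KO and 0.924 and 0.846 in CTL, a ratio 0.911-fold as high in P1KO. With 2 libraries a group, the exact two-sided permutation test cannot give a p below 0.333, and the 10 ratios without overlap were at that value, so the differences between members were not tested beyond this.

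Between receptors and their transcription factor, the ratio of Notch4 to Rbpj reads was 15.0 and 14.8 in the P1KO libraries, against 9.81 and 9.80 in the CTL libraries. It was 1.52-fold higher in P1KO, and the 2 libraries of a group differed little. Of the 15 pairs this was the one with the closest libraries, and it was picked after seeing the values. For Rbpj alone, the ratio of CTL2 to CTL1 had a 95% interval of 0.940 to 1.14 (exact binomial). The closeness is thus finer than counting error resolves and says little by itself. The ratio of Notch1 to Rbpj was 12.4 and 11.6 in P1KO and 9.07 and 8.30 in CTL. Rbpj relative to Adam10 was 0.157 and 0.211 in P1KO and 0.247 and 0.253 in CTL, again without overlap. The ratios of Notch1, Notch3 and Notch4 to Adam10 overlapped between the groups, with KO1 below and KO3 above both controls in each.

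**Figure D3:**
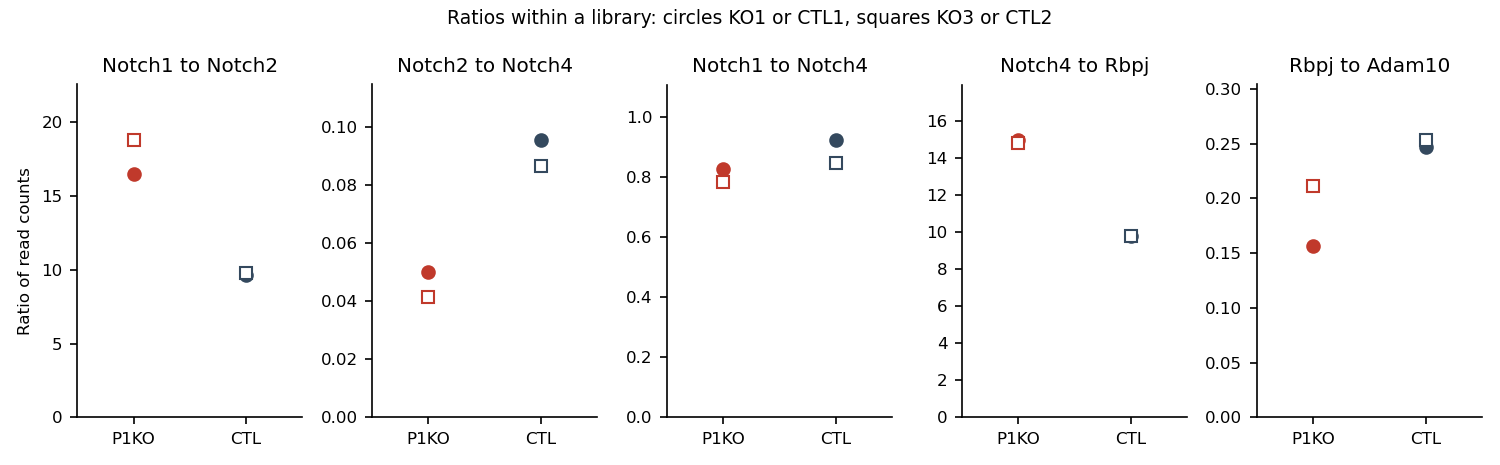
Ratios of read counts between pairs of the genes in each library, with P1KO left of CTL and each axis starting at 0. The ratio of Notch1 to Notch2 is above 16 in both P1KO libraries and below 10 in both CTL libraries. The ratio of Notch4 to Rbpj is nearly equal within each group, more closely than the counting error of the Rbpj reads resolves.

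Reads of the 4 receptors together made up 1091 and 1251 CPM in the P1KO libraries, against 949 and 939 CPM in the CTL libraries, with means of 1171 ± 113 CPM in P1KO and 944 ± 7.53 CPM in CTL (SD, n = 2 each). The sum was 1.24-fold higher in P1KO and consisted mostly of Notch4 and Notch1 reads. Notch4 took 52.5% (Wilson 95% interval 51.8 to 53.2) and 53.9% (53.2 to 54.5) of the receptor reads in P1KO, against 48.8% (48.0 to 49.6) and 51.0% (50.3 to 51.8) in CTL. Notch1 took 43.5% (42.8 to 44.2) and 42.2% (41.5 to 42.8) in P1KO and 45.1% (44.3 to 45.8) and 43.2% (42.4 to 43.9) in CTL, and these ranges overlapped. The share of Notch2 was lower without overlap, at 2.63% (2.42 to 2.87) and 2.25% (2.06 to 2.45) in P1KO, against 4.67% (4.357 to 4.998) and 4.42% (4.12 to 4.74) in CTL. Notch3 took 1.37% (1.22 to 1.54) and 1.68% (1.52 to 1.86) in P1KO and 1.45% (1.27 to 1.64) and 1.34% (1.18 to 1.53) in CTL, also with overlap. Longer transcripts give more reads, and no transcript lengths were used here, so the shares describe reads and do not rank the receptors by number of transcripts.

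All 6 members had groups without overlap, 4 with P1KO above CTL and 2 below. So were 62.6% of all tested genes, 30.5% with P1KO above and 32.1% below, and so the separation alone says little about the members. The median log2 fold change of the 6 was 0.26 and their median size was 0.34, against -0.01 and 0.22 over all tested genes. At the members' own levels, the called share was 61.9% of the genes above 512 CPM, where Notch4 lies, and 39.7% of those at 128 to 512 CPM, where Notch1 and Adam10 lie. It was 25.5% at 32 to 128 CPM, where Notch2 and Rbpj lie, and 18.1% at 8 to 32 CPM, where Notch3 lies. For the abundant members a call was thus common among genes of their level. The median size of the log2 fold change was 0.26 above 512 CPM and 0.172 at 128 to 512 CPM. It was 0.14 at 32 to 128 CPM and 0.185 at 8 to 32 CPM. Each member changed more in size than the median of its class.

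**Figure D4:**
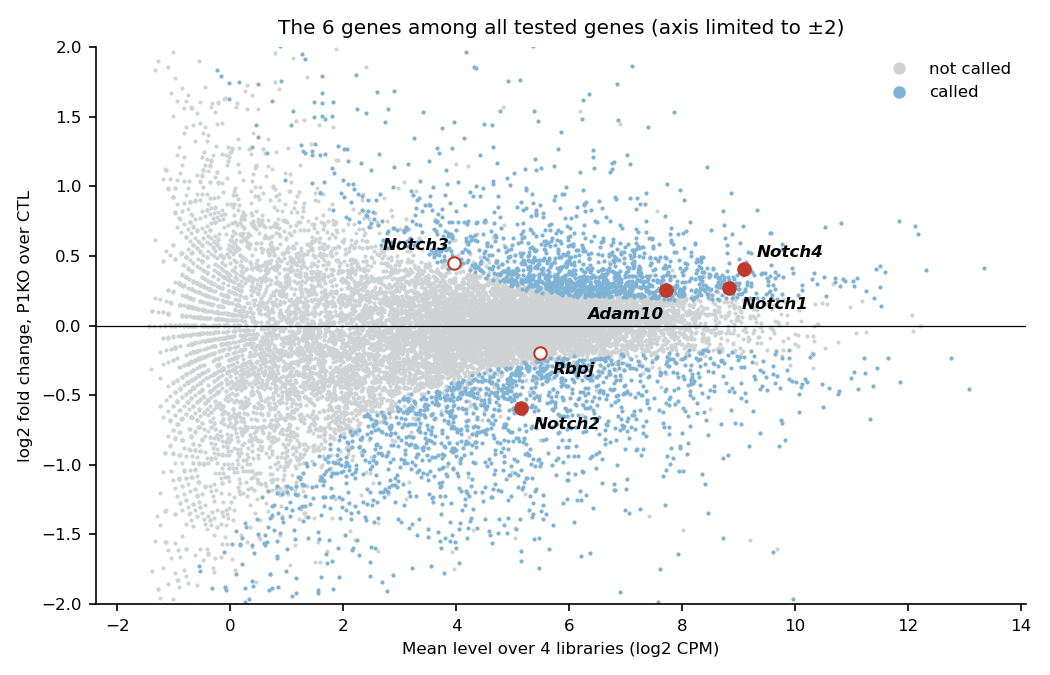
log2 fold change of P1KO over CTL against the mean level over 4 libraries for the 15510 tested genes, with called genes in blue and the 6 genes in red (filled where called, open where not). Notch1, Notch4 and Adam10 lie among abundant genes with modest rises, and Notch2 lies below most genes of its level; 160 genes lie beyond the limits of the vertical axis.

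The calls depended on the closeness of the CTL libraries. With the spread taken from the P1KO pair alone, in the edgeR fits without CTL1 and without CTL2, none of the 6 members passed, and 129 and 120 genes passed over all, 0.832% and 0.774% of those tested. The share of all tested genes at an unadjusted p below 0.05 was not computed for these fits, so members at that threshold are not counted. Notch2 then had log2 fold changes of -0.55 and -0.65 with adjusted p-values of 0.105 and 0.0830, the smallest among the members. Notch4 had 0.38 and 0.42 with adjusted p-values of 0.229 and 0.198, and Notch1 0.30 and 0.22 with 0.241 and 0.349. Adam10 had 0.24 and 0.26 with adjusted p-values of 0.324 and 0.307. Without KO1 and without KO3 the spread came from the CTL pair, and 5 of the 6 members passed in each fit, with 34.8% and 33.6% of all tested genes. The member that missed was Rbpj without KO1 and Notch3 without KO3. The library left out decided the size of some changes as well. Without KO3 the log2 fold change of Notch1 was 0.19 and that of Notch4 0.28, and without KO1 that of Adam10 was 0.16. The same 4 members passed with DESeq2 (14.5% of tested genes called), with its size factors (19.7%), with library totals (19.2%), with limma-voom (20.1%), with limma-voom and a spread per group (19.0%) and with a filter of 5 CPM (25.9%). Without a filter on low counts Notch2 alone passed (6.24%), and none did with the CTL libraries summed (0.980%) or against a minimum change of 1.5-fold (1.74%). The sign of all 6 log2 fold changes was the same in each of the 13 alternative fits, which says little where the groups do not overlap.

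**Figure D5:**
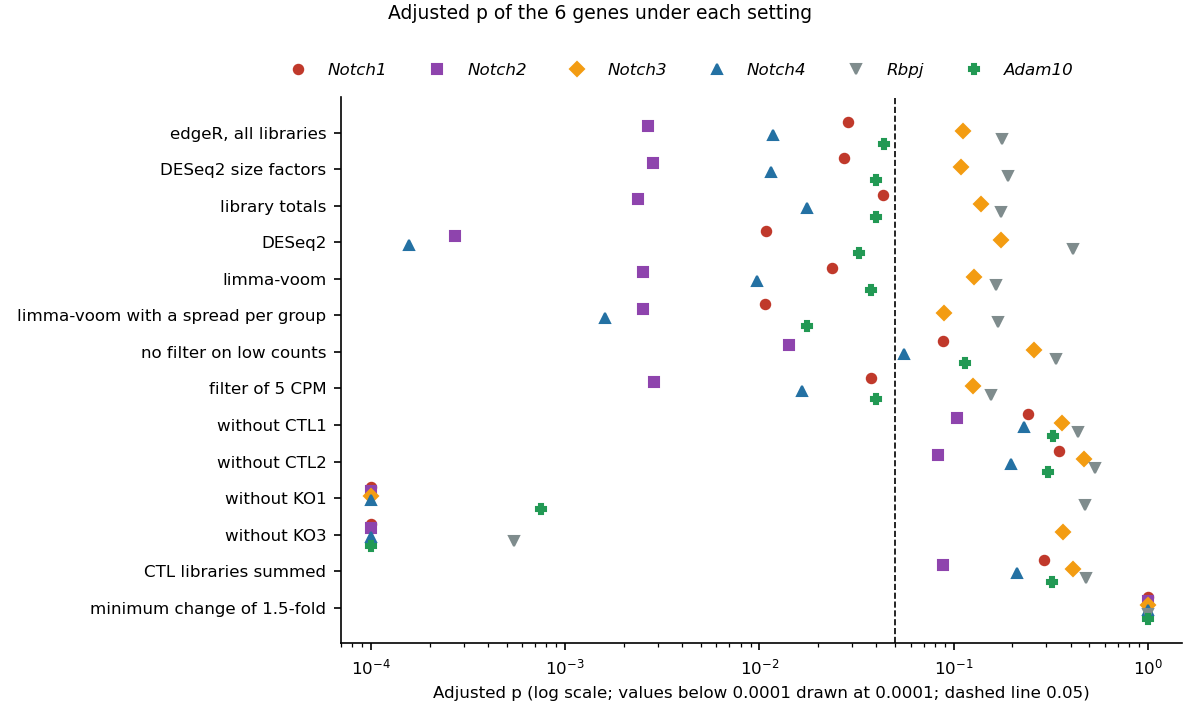
Adjusted p of each gene, on a log axis, in the edgeR fit to all libraries and in each alternative fit; the dashed line marks 0.05, and very small values are drawn at the left edge. Notch2 lies left of the line also without a filter on low counts, whereas all 6 genes lie right of it without either CTL library, with both of them summed, and against a minimum change of 1.5-fold.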

How the data were processed

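The authors deposited 1 table of raw read counts per Ensembl gene for the 4 libraries. Per the submitters' processing notes, reads were handled with CASAVA and fastp, the build was mm10, and HISAT2 2.0.5 and featureCounts 1.5.0-p3 were among the tools. Annotation release, strand setting and treatment of multiply mapped reads are not stated there. A sample title matches each of the columns CTL1, CTL2 and KO1. Column KO3 bears a number found in no title and was used as a P1KO library with no sample number. Per the labels' protocols, total RNA went into a NEBNext Ultra RNA library kit.

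Counts were tested with edgeR 4.0.16 in R 4.3.3, after filterByExpr and TMM scaling. The quasi-likelihood F-test set P1KO against CTL in all 4 libraries and had no covariate. Adjustment was by Benjamini-Hochberg over the 15510 tested genes, and a gene was called below 0.05. The SE is the size of the log2 fold change divided by the square root of F. CPM values are TMM-scaled and computed here. The script was tested on simulated data, with a pass mark only for changes larger than those of any member. That test therefore does not bear on changes of the members' size. The alternatives were DESeq2 1.42.0 and its size factors, library totals, limma-voom (limma 3.58.1) with 1 spread and with a spread per group, no filter (at least 1 read), a filter of 5 CPM in 2 libraries, and each library left out. Summed CTL libraries and edgeR's glmTreat with a minimum of 1.5-fold were chosen after seeing the data, as were the levels per class, the ratios between members and the leaving out of libraries for ratios and receptor shares. Fits with a library left out or summed used the same 15510 genes.

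The members and lists were chosen with earlier results of these data known. The text names the 6 members. A list of 80 other pathway genes, 8 marker lists with 67 genes, the targeted gene and the genes nearest in pattern were to be read by symbol, but 0 of the 49997 genes in the reference table carry an Ensembl identifier, so these are not analysed here. Member names follow the rule that lists their identifiers. Levels per length are not given, since no transcript length was used here.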

Additional observations from a re-analysis of the deposited data

How the results depend on the processing

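Scaling with DESeq2 size factors or library totals, DESeq2's own test, limma-voom with 1 spread or a spread per group, and a filter of 5 CPM left all 6 members on the same side of 0.05 with the same sign. Without a filter on low counts, 26155 genes were tested and 1633 passed, and of the members 1 passed, Notch2, and 0 passed as higher. Notch1, Notch4 and Adam10 then missed the threshold at log2 fold changes of 0.263, 0.401 and 0.252, with adjusted p-values of 0.0887, 0.0554 and 0.115. With both CTL libraries summed, 152 genes passed and 0 members, 0 higher and 0 lower, in edgeR's test, with 2 members, Notch2 and Notch4, at an unadjusted p below 0.05. The log2 fold changes were 0.262 for Notch1, -0.599 for Notch2, 0.399 for Notch4 and 0.25 for Adam10. Against a minimum change of 1.5-fold, 270 genes passed in edgeR's glmTreat and 0 members. The values of 0.266 for Notch1, -0.594 for Notch2, 0.404 for Notch4 and 0.255 for Adam10 were as in the fit to all libraries. Leaving out 1 library at a time gave between 120 and 5391 called genes and between 0 and 5 called members, with 0 to 4 higher and 0 to 2 lower. The log2 fold changes then ranged from 0.187 to 0.341 for Notch1, -0.645 to -0.55 for Notch2, 0.183 to 0.679 for Notch3, 0.282 to 0.516 for Notch4, -0.329 to -0.082 for Rbpj and 0.16 to 0.345 for Adam10. The spread of a group with 1 library left was assumed equal to that of the other group.

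Differences that were small to begin with changed sign when 1 library was left out. The share of Notch3 among the receptor reads, P1KO minus CTL, ranged from -0.024 to 0.29 percentage points. The log2 change of the ratio of Notch1 to Notch3 ranged from -0.338 to 0.003, of Notch1 to Adam10 from -0.157 to 0.182 and of Notch3 to Notch4 from -0.098 to 0.163. The change of Notch3 to Adam10 ranged from -0.16 to 0.52 and that of Notch4 to Adam10 from -0.062 to 0.356. All 5 of these ratio changes reversed without KO3. No paired analysis was possible because column KO3 carries a number that no sample title has, so the columns of the 2 groups have only the number 1 in common. Shares and levels per length were not run, for lack of transcript lengths, and the pathway list was not run, for lack of matched symbols. Notch3, with 225 to 375 reads per library, is the member whose value counting error limits most.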
